A study of Mus musculus with 6 samples.

Results

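The genes described here act in, or bear on, the uptake, activation and oxidation of fatty acids in cardiac cells. There were 39 of them, chosen by gene symbol, and all 39 were found by NCBI gene ID among the 18019 IDs of the deposited table. They fall into 4 role groups: 7 genes of uptake and activation, 7 of the carnitine shuttle and its control by malonyl-CoA, 18 of beta-oxidation and the transfer of its electrons, and 7 thioesterases, uncoupling proteins and pyruvate dehydrogenase kinases.

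Lipoprotein lipase frees fatty acids from circulating triglycerides, CD36 and fatty acid transport proteins take them up, and acyl-CoA synthetases attach coenzyme A. Long-chain acyl groups then cross into the mitochondrion as carnitine esters, a step that malonyl-CoA inhibits, and are shortened in repeated rounds of beta-oxidation whose electrons reach the respiratory chain partly through the electron transfer flavoprotein. The adult heart draws most of its energy from this pathway, and its genes are known targets of the nuclear receptor PPAR-alpha and its partners.

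The hearts came from wild-type mice collected 8 weeks after transverse aortic constriction (TAC), in which a tied aorta loads the left ventricle with pressure, and all 6 libraries carry this operation. For the 3 VNS-TAC libraries, rAAV-ChAT-hChR2[H134R]-GFP had been injected into the DVMN, the dorsal motor nucleus of the vagus: an adeno-associated virus whose ChAT promoter drives a light-gated cation channel joined to GFP in cholinergic neurones, through which vagal preganglionic neurones were activated by light. For the 3 Ctrl-TAC libraries the virus was rAAV-ChAT-GFP, without the channel, and hearts without TAC were not analysed here. The treatment tag reads VNS for all 6 libraries, so the groups were taken from the titles. The age, sex and strain of the animals, the cells that the virus reached and the number of animals behind each library are not stated in the labels. The p-values therefore measure the spread between libraries, which may be technical. VNS-TAC 1, 2 and 3 are numbered here as the table's columns are, and which labelled library each column holds is not given. VNS-TAC 1 and VNS-TAC 3 stood apart from the other libraries, often in opposite directions.

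RNA was measured as FPKM (fragments per kilobase of gene scaled to library depth), a scale per length on which genes can be compared with each other, and the spacing of low values put the depth roughly at 13700000 to 16000000 fragments per library. By that estimate the fewest fragments behind any member value were 36 for Acsl3, then 93 for Ucp3, 168 for Ehhadh and 200 for Acot1. Counting error therefore bears most on these genes. Cardiomyocyte markers were abundant in every library, with a summed level over 14 genes of 58390 to 91560 FPKM in VNS-TAC against 69630 to 72070 in Ctrl-TAC, while 9 skeletal muscle markers summed to 6.59 FPKM at most. VNS-TAC 3 had the lowest cardiomyocyte sum, and VNS-TAC 1 the highest. That order did not hold for each marker: Tnnt2 was highest in VNS-TAC 3, at 15154 FPKM against 7014 to 9579 in the other libraries. All 39 members were above the filter of a mean of 1 FPKM.

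Fabp3, the fatty acid binding protein of muscle cytosol, was by far the most abundant member, with a mean of 5301 FPKM over the 6 libraries and rank 8 of all genes in the table. Lpl followed at 1220 FPKM, then Hadhb at 885.1 and Etfb at 840.9 FPKM. At the low end stood Acsl5 at 7.44, Ehhadh at 5.02 and Acsl3 at 1.23 FPKM. The muscle isoform Cpt1b was at 291.6 FPKM and the liver isoform Cpt1a at 13.6 FPKM. The order of neighbours is not firm, because the VNS-TAC libraries were spread more widely than the distance between most of them, as for Acadm at 504.7 and Acadl at 470.6 FPKM.

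**Figure D1:**
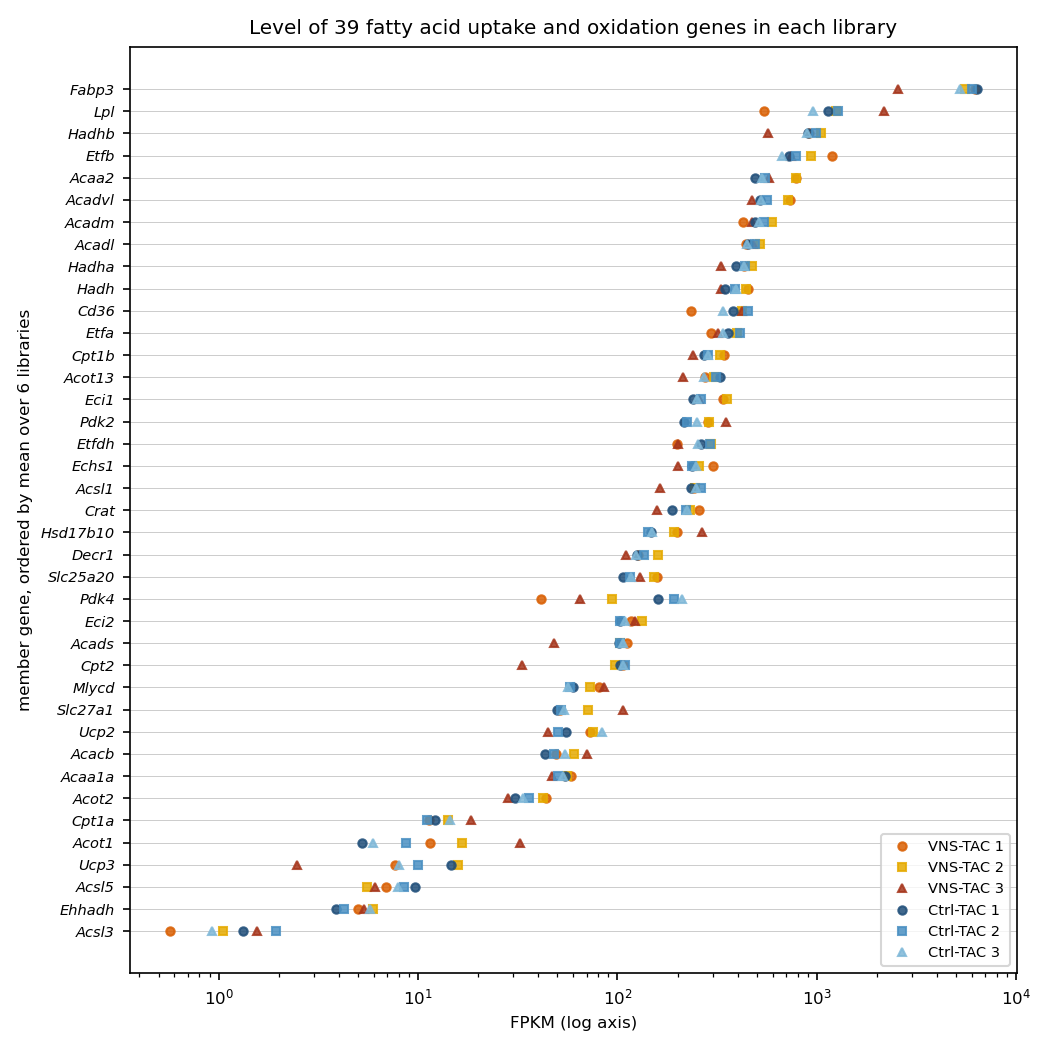
Level of the 39 members in each library, as FPKM on a log axis; circles, squares and triangles are libraries 1, 2 and 3 of a group, in orange, yellow and red for VNS-TAC and in blues for Ctrl-TAC. Blue points lie close together for most genes, and the red triangle of VNS-TAC 3 lies apart for Fabp3, Cpt2, Acads and Lpl.

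The question behind the 2 groups is what vagal activation does to the overloaded heart. Of the 39 members, 23 were higher and 16 lower on average, with a median log2 fold change of 0.04, against -0.08 over the 11422 genes tested. The widest differences of this fit were those of Pdk4 and Acot1. Pdk4, a kinase that shuts pyruvate out of oxidation, stood at 35.5% of its Ctrl-TAC mean, and Acot1, an acyl-CoA thioesterase, at 304%. No member passed the adjusted threshold of 0.05 in limma with Benjamini-Hochberg adjustment over all genes (smallest adjusted p = 0.179, Pdk4), where the share of all genes called was 0.0%.

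At an unadjusted p under 0.05, limma gave 6 members higher (15.4%), namely Slc25a20, Mlycd, Acaa2, Hsd17b10, Acot1 and Pdk2, against a background of 3.79% of all genes in that direction. It gave 2 lower (5.13%), Acsl5 and Pdk4, against a background of 11.3%. In both directions together these 8 are 20.5% of the members, against 15.0% of all genes. The count was 14 without VNS-TAC 3, where the share of all genes was 21.7%, 4 without Ctrl-TAC 1 (7.31%) and 5 without Ctrl-TAC 2 (6.71%), so the background moved the same way. Among all genes at that p, 25.2% were higher, a share that was 46.7% with size factors, 54.4% with quantile normalization and 10.8% at an equal FPKM sum. Of the members at that p, 8 were higher and 2 lower with size factors. The counts were 4 and 2 after quantile normalization, and 5 and 2 at an equal FPKM sum. The gap by direction between members and background thus depended on the scaling.

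The libraries of the groups did not overlap for 7 higher members (17.9%, background 8.01%), which are the 6 above and Eci2, and for 2 lower members (5.13%, background 17.4%), Acsl5 and Pdk4. Together they make up 23.1% of the members, against 25.4% of all genes. That pooled share is near the background, while on the deposited scale the share of higher members was above it and that of lower members below it. After quantile normalization 6 members were higher and 3 lower without overlap, and at an equal FPKM sum 6 and 4. The background by direction was not computed for those scalings. Without VNS-TAC 3 the count was 18 (46.2%, against 40.8% of all genes), with 41.0% higher (background 12.4%) and 5.13% lower (background 28.4%). The summed level of 15 mitochondrial marker genes was higher in VNS-TAC, too: with Cs, Vdac1 and Slc25a4 among them, they summed to 16620 to 17140 FPKM in VNS-TAC against 12950 to 13760 in Ctrl-TAC, and 11 of the 15 were higher on average. That gap rested on Slc25a4, the adenine nucleotide carrier of heart, at 6821 to 9349 FPKM against 5120 to 5697. Without it the sums were 10230, 9197 and 7791 FPKM against 7653, 8065 and 7831, which overlap through VNS-TAC 3. The chaperonin gene Hspd1 of the same list was lower, at 64.9 to 110.0 FPKM against 135 to 184, and of the 15 markers 1 was higher and 2 were lower at an unadjusted p under 0.05. The part of mitochondrial content in the member values was not tested. In whole tissue, fewer cells of a type and less RNA per cell cannot be told apart.

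**Figure D2:**
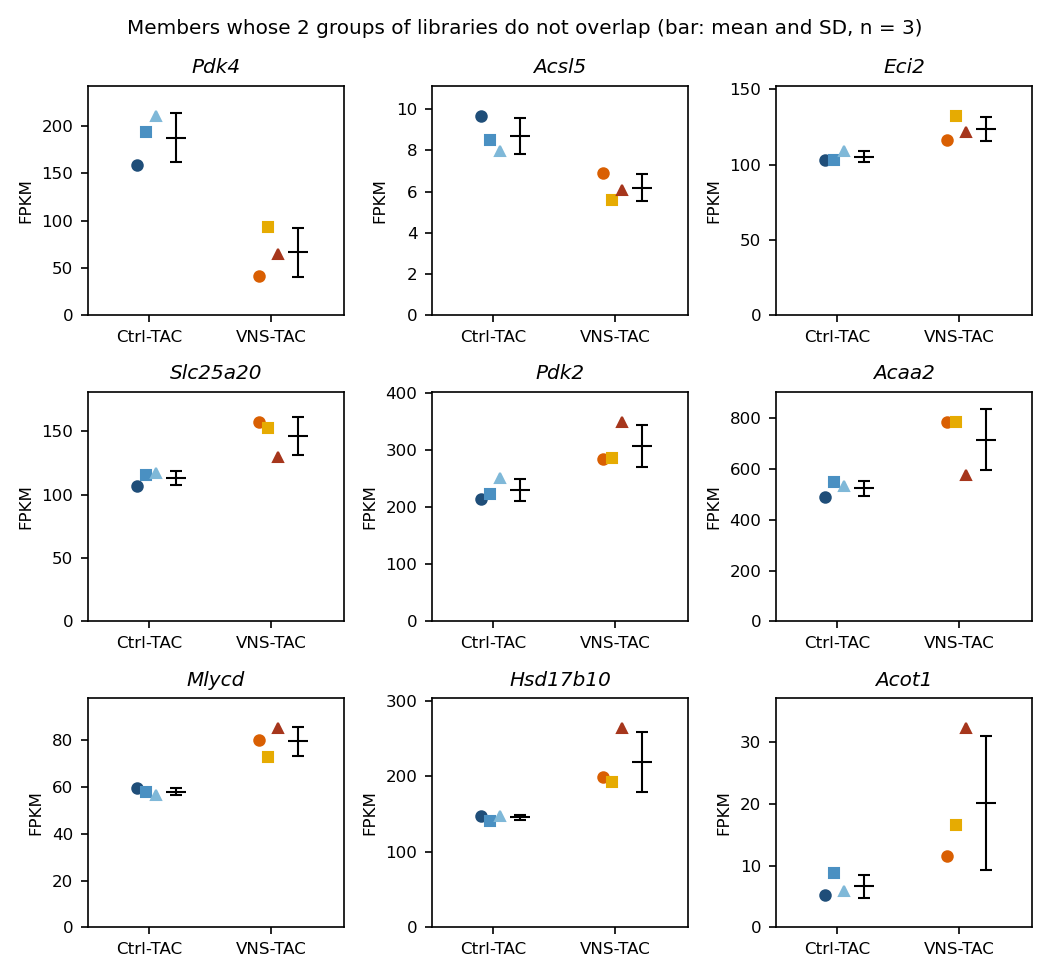
FPKM of the 9 members whose groups do not overlap, with circles, squares and triangles for libraries 1, 2 and 3 and bars for the mean and SD of 3 libraries; each vertical axis starts at 0. Pdk4 and Acsl5 are lower in VNS-TAC, and the other 7 genes are higher, with Acot1 at 32.3 FPKM in VNS-TAC 3.

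Of the 7 thioesterases, uncoupling proteins and kinases, 4 were higher and 3 lower on average, with a median log2 fold change of 0.03 that was -0.05 at an equal FPKM sum. Leaving out 1 library moved that median from -0.12 (Ctrl-TAC 2) to 0.26 (VNS-TAC 3), so it has no firm sign. The kinases of pyruvate dehydrogenase had fold changes of opposite sign. Pdk4 (chromosome 6, 5483351 to 5496278, GRCm38) is the kinase that heart muscle raises in fasting and when fatty acids are plentiful. Its FPKM values were 41.5, 93.6 and 64.9 in VNS-TAC and 159, 193 and 210 in the controls, with means of 66.7 ± 26.1 and 187.6 ± 26.1 (SD, n = 3). The highest VNS-TAC library thus lay below the lowest control, with a log2 fold change of -1.54 ± 0.28 (SE; limma adjusted p = 0.179). Pdk2 (chromosome 11, 95026258 to 95041371), another kinase of the same enzyme, was at 286, 287 and 350 FPKM against 215, 224 and 252. Every VNS-TAC library was above every control, with a log2 fold change of 0.41 ± 0.14 (limma adjusted p = 0.264), which was 0.30 after quantile normalization and then no longer under 0.05 unadjusted.

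Pdk4 therefore made up 12.7, 24.6 and 15.6% of the Pdk2 and Pdk4 FPKM in the VNS-TAC libraries, against 42.5, 46.3 and 45.6% in Ctrl-TAC. The means were 17.6% ± 6.21 and 44.8% ± 2.03 (SD, n = 3), a difference of -27.1 points. A 2-sided exact permutation test gave p = 0.1, the smallest that 3 libraries against 3 allow, and 0.2 after Benjamini-Hochberg adjustment over 4 such shares. Of the other genes at the entry of pyruvate, 13 were tested, Pdk1 and Pdk3 among them, and 1 was higher and 0 lower at an unadjusted p under 0.05. That gene was Mpc1, a subunit of the mitochondrial pyruvate carrier, at 539, 559 and 578 FPKM against 457, 466 and 452 (limma adjusted p = 0.314). Dld, the dehydrogenase subunit of the pyruvate dehydrogenase complex, was at 90.7, 146 and 117 FPKM against 146, 168 and 131, with overlap.

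The thioesterases Acot1 and Acot2 split fatty acyl-CoA into free acid and coenzyme A, Acot1 in the cytosol and Acot2 in the mitochondrion. They are neighbours on chromosome 12, at 84009502 to 84017670 and 83987861 to 83993877. Acot1 had FPKM values of 11.5, 16.5 and 32.3 in VNS-TAC and 5.24, 8.73 and 5.91 in the controls, with means of 20.1 ± 10.8 and 6.63 ± 1.85 (SD, n = 3). This is a log2 fold change of 1.37 ± 0.35 (SE; limma adjusted p = 0.225), or 0.98 without VNS-TAC 3. All 3 VNS-TAC libraries were above the controls, and VNS-TAC 3 stood far above the other two. Acot2 was at 44.0, 42.5 and 28.2 FPKM against 30.7, 36.1 and 33.7, so that its groups overlapped, VNS-TAC 3 being the lowest of all libraries.

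The Acot1 share of the pair was 34.0% ± 17.1 in VNS-TAC and 16.3% ± 2.74 in Ctrl-TAC (SD, n = 3; 2-sided exact permutation p = 0.1, adjusted p = 0.2), a share added after the values were seen. The values of this pair are uncertain, because their longest coding transcripts are 80.2% identical over aligned bases and share a run of 273 identical bases, in which reads cannot be assigned to 1 gene. Acot13, a thioesterase bound to mitochondria, was at 275, 306 and 214 FPKM against 328, 313 and 271 (limma adjusted p = 0.554).

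The 250 bases before the start of transcription are shown for Pdk4 and Acot1, the members furthest from their control means, and for Acot2, a close copy of Acot1 (RefSeq, GRCm38.p6). They are Pdk4 on the minus strand (chr6:5496279-5496528), Acot1 on the plus strand (chr12:84009252-84009501) and Acot2 on the plus strand (chr12:83987611-83987860). Capitals mark a CCAAT box, written CCAAT or, on the opposite strand, ATTGG.
Pdk4: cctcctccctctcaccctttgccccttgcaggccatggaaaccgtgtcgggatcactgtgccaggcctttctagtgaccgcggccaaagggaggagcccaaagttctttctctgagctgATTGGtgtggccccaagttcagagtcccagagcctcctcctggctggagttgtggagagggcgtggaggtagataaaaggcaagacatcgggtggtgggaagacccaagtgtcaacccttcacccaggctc
Acot1: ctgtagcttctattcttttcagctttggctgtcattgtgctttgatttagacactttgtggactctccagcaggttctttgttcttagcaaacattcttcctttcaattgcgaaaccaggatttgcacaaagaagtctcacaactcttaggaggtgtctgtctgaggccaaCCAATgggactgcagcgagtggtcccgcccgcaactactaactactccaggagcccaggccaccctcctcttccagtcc
Acot2: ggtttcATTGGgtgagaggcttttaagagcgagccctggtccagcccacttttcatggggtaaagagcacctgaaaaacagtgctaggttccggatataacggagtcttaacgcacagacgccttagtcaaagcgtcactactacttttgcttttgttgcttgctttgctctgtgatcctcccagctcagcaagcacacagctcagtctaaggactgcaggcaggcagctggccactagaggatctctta
Each window holds 1 such box, at a different place. It was found in 21 of 37 member windows (56.8%, from 33 genes with an entry), against 33.8% of all 32851 windows of this length, searched on both strands and added after the data were seen. The core element of nuclear receptors, AGGTCA, was in 6 windows (16.2%), those of Acadm, Acadvl, Cd36, Cpt1a, Echs1 and Ucp3, against 14.0% of all windows. The response element of PPAR receptors, a direct repeat of AGGTCA with a spacer of 1 base, which holds those letters at both ends, was in 0 member windows and in 0.0335% of all, and TCAAGGTCA, the element of the estrogen-related receptors, which contains AGGTCA, was in 0 and 0.387%. These are letters in a short window and not binding sites.

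The uncoupling proteins are carriers of the inner mitochondrial membrane. Ucp2 was at 72.72, 75.02 and 44.88 FPKM in VNS-TAC against 55.0, 50.2 and 83.8 in Ctrl-TAC, with full overlap. Ucp3, the muscle form, had the largest relative spread of any member in VNS-TAC, at 7.69, 15.9 and 2.47 FPKM against 14.6, 9.99 and 8.03. VNS-TAC held both its highest and its lowest value, and the limma adjusted p was 0.622.

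In uptake and activation, 5 of 7 members were lower on average, with a median log2 fold change of -0.21 that was near 0 once a trend on GC content was removed, -0.05 without VNS-TAC 1 and -0.07 without Ctrl-TAC 2. Acsl5 (chromosome 19, 55251861 to 55296628), an acyl-CoA synthetase, was at 6.90, 5.57 and 6.09 FPKM in VNS-TAC against 9.66, 8.47 and 7.96 in Ctrl-TAC. The groups did not overlap, and the log2 fold change was -0.43 ± 0.14 (SE; limma adjusted p = 0.251), or -0.33 after quantile normalization and then no longer under 0.05 unadjusted. Acsl1, the main synthetase of cardiac muscle, was at 243, 245 and 163 FPKM against 234, 263 and 248. Only VNS-TAC 3 of its libraries was below the controls (log2 fold change -0.21 ± 0.18, limma adjusted p = 0.573).

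Lpl, the lipase that supplies the heart with fatty acids, varied widely between VNS-TAC libraries, with little difference between the mean log2 values of the groups (log2 fold change 0.03 ± 0.45, SE; limma adjusted p = 0.98). Its FPKM values were 543, 1246 and 2167 in VNS-TAC and 1138, 1275 and 954 in the controls. VNS-TAC 1 was the lowest and VNS-TAC 3 the highest of all 6. Cd36, the fatty acid translocase, was at 235, 420 and 423 FPKM against 379, 453 and 336, again lowest in VNS-TAC 1.

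Fabp3 was at 6171, 5544 and 2563 FPKM in VNS-TAC against 6327, 5989 and 5213 in Ctrl-TAC. Its log2 fold change of -0.39 ± 0.34 (SE; limma adjusted p = 0.577) rested on VNS-TAC 3, and was 0.01 without it. Slc27a1, a fatty acid transport protein, was higher on average, at 51.5, 71.3 and 107 FPKM against 49.9, 52.1 and 54.2, with VNS-TAC 1 inside the control range (log2 fold change 0.49 ± 0.24, limma adjusted p = 0.378). That value was 0.22 without VNS-TAC 3 and 0.74 without VNS-TAC 1. Acsl3 was at 0.57 to 1.55 FPKM in VNS-TAC against 0.93 to 1.94 in Ctrl-TAC.

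Fat cells also make Lpl and Cd36, and capillary endothelium also makes Cd36, so markers of both cell types were read beside these genes. The 15 endothelial markers summed to 946.2 to 1245 FPKM in VNS-TAC against 1321 to 1371 in Ctrl-TAC, and 11 of 15 were lower on average. The largest part of that sum was Fabp4, which is itself a lipid uptake gene, at 336 to 574 FPKM against 586 to 612. Pecam1 was at 64.3 to 75.0 FPKM against 66.3 to 73.0, with overlap. The 14 adipocyte markers summed to 759.2 to 1917 FPKM against 1623 to 1741, most of it Cox7a1, which cardiac muscle makes as well. The adipokine gene Adipoq was at 1.04, 3.28 and 0.16 FPKM in VNS-TAC against 1.72, 0.99 and 5.92 in Ctrl-TAC, and Lep, Pck1 and Ucp1 were each at 0 in at least 1 library. In VNS-TAC 3, where Lpl was highest, Adipoq was the lowest of all libraries, while Lipe (30.6 FPKM) and Acaca (4.59 FPKM) of the same list, which are not particular to fat cells, were the highest. The part of fat cells and endothelial cells in these values was not tested.

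**Figure D3:**
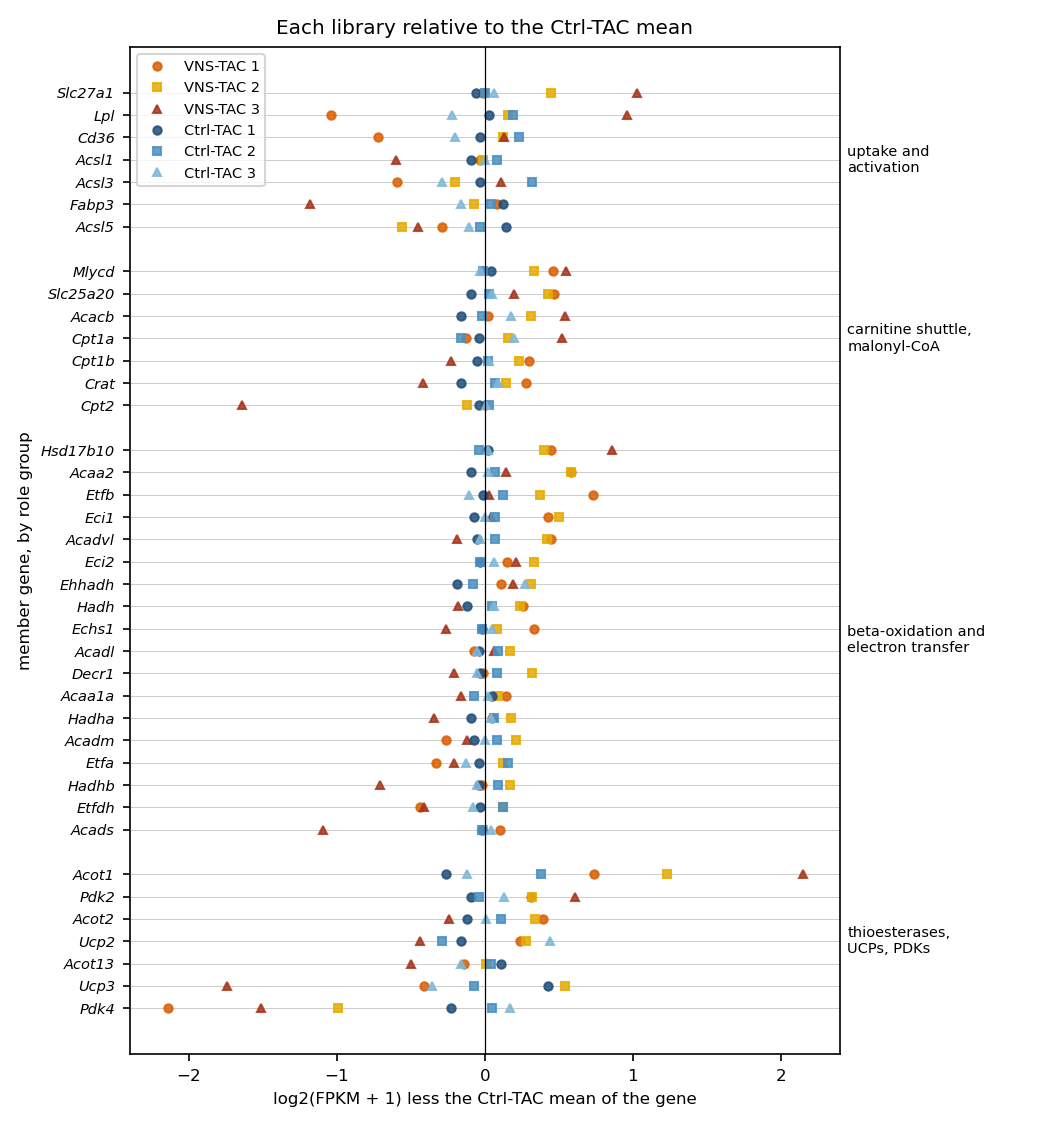
log2(FPKM + 1) of each member in each library less the mean of the 3 Ctrl-TAC libraries, by role group; circles, squares and triangles are libraries 1, 2 and 3, with VNS-TAC in orange, yellow and red and Ctrl-TAC in blues. Controls stay near 0, while VNS-TAC 3 is at -1.64 for Cpt2, -1.09 for Acads and 2.15 for Acot1.

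In the carnitine shuttle and its control by malonyl-CoA, 5 of 7 members were higher on average, with a median log2 fold change of 0.19. Mlycd (chromosome 8, 119394852 to 119421838), the decarboxylase that removes malonyl-CoA, was at 80.4, 73.1 and 85.4 FPKM in VNS-TAC against 59.7, 57.8 and 56.7 in Ctrl-TAC. Its libraries were close together within each group and did not overlap between groups (log2 fold change 0.45 ± 0.11, SE; limma adjusted p = 0.221). Slc25a20 (chromosome 9, 108662136 to 108684642), the carrier that exchanges acylcarnitine for carnitine across the inner membrane, was at 157, 152 and 130 FPKM against 106, 115 and 117. It was higher in all 3 VNS-TAC libraries, by 0.37 ± 0.13 on the log2 scale (limma adjusted p = 0.264).

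Acacb, the mitochondrial acetyl-CoA carboxylase that makes malonyl-CoA, was at 49.2, 60.4 and 70.7 FPKM against 43.4, 47.8 and 54.9. Its groups overlapped, and its log2 fold change had the same sign as that of the enzyme that removes its product (0.29 ± 0.17, limma adjusted p = 0.423). Cpt2, which returns the acyl group to coenzyme A inside the mitochondrion, was at 106, 97.2 and 33.3 FPKM against 103, 109 and 107. Only VNS-TAC 3 stood apart, and the log2 fold change of -0.59 ± 0.40 (limma adjusted p = 0.493) rested on it, being -0.06 without it.

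Cpt1b, the muscle isoform of the enzyme that malonyl-CoA inhibits, was at 344, 328 and 238 FPKM in VNS-TAC against 270, 284 and 285 in Ctrl-TAC. The liver isoform Cpt1a was at 11.4, 14.2 and 18.4 FPKM against 12.2, 11.1 and 14.5. In VNS-TAC 3 Cpt1b was the lowest and Cpt1a the highest of all libraries, and Cpt1a made up 7.19% of the pair there, against 3.21 and 4.14% in the other VNS-TAC libraries and 3.76 to 4.84% in the controls. The group means of 4.84% ± 2.08 and 4.30% ± 0.538 (SD, n = 3) did not differ beyond the spread (2-sided exact permutation p = 0.9), and the difference changed sign without VNS-TAC 3. Crat, which moves acetyl groups onto carnitine, was at 157 to 256 FPKM against 188 to 223.

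Among the 18 genes of beta-oxidation and electron transfer, 12 were higher and 6 lower on average, with a median log2 fold change of 0.05, which was -0.01 after quantile normalization and -0.02 at an equal FPKM sum, but 0.13 with size factors, 0.18 without VNS-TAC 3 or with the GC trend removed, and 0.20 with array weights. Hsd17b10 (chromosome X, 152001896 to 152004442), a short-chain hydroxyacyl-CoA dehydrogenase that also serves isoleucine breakdown and mitochondrial tRNA processing, was at 199, 192 and 264 FPKM in VNS-TAC against 148, 141 and 148 in Ctrl-TAC. The 3 controls lay within a few FPKM of each other and below every VNS-TAC library (log2 fold change 0.57 ± 0.15, SE; limma adjusted p = 0.232). Acaa2, the thiolase that releases acetyl-CoA at the end of a round, was at 784, 785 and 576 FPKM against 491, 550 and 531. Its groups did not overlap, though VNS-TAC 3 was close to the controls (log2 fold change 0.43 ± 0.16, limma adjusted p = 0.289), and after quantile normalization the value was 0.25 and no longer under 0.05 unadjusted.

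The enoyl-CoA isomerases Eci1 and Eci2, which prepare unsaturated fatty acids for the pathway, were both higher on average. Eci1 was at 336, 354 and 257 FPKM against 239, 263 and 250, and overlapped only through VNS-TAC 3 (log2 fold change 0.32 ± 0.15, limma adjusted p = 0.365). Eci2 was at 116, 132 and 122 FPKM against 103, 103 and 109, without overlap (0.23 ± 0.11, limma adjusted p = 0.369). Decr1, which acts beside them on polyunsaturated chains, was at 111 to 160 FPKM against 124 to 135.

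The dehydrogenases of the first step act on different chain lengths. Acadvl, for very long chains, was at 732, 718 and 471 FPKM in VNS-TAC against 518, 564 and 526 in Ctrl-TAC. Acadl was at 439, 520 and 480 FPKM against 450, 490 and 445, and Acadm, for medium chains, at 426, 593 and 471 against 487, 540 and 511. Acads, for short chains, was at 48.3 FPKM in VNS-TAC 3 and at 102 to 111 FPKM in the other 5 libraries. For Acadl and Acadm the groups overlapped fully, and for Acadvl and Acads it was again VNS-TAC 3 that was lowest.

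The trifunctional protein carries out the remaining steps on long chains. Its alpha subunit gene Hadha was at 432, 475 and 330 FPKM against 392, 435 and 429, and its beta subunit gene Hadhb at 915, 1044 and 565 against 902, 990 and 894. Both genes were highest in VNS-TAC 2 and lowest in VNS-TAC 3. Hadh and Echs1, which handle shorter chains, were at 330 to 449 and 200 to 302 FPKM in VNS-TAC against 346 to 392 and 236 to 248 in Ctrl-TAC. The peroxisomal members Acaa1a and Ehhadh were at 46.8 to 58.2 and 5.01 to 5.91 FPKM against 50.1 to 54.3 and 3.87 to 5.72, with overlap.

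Electrons of the first step pass to the electron transfer flavoprotein, made of the products of Etfa and Etfb, and on to its dehydrogenase, Etfdh. Etfb was at 1197, 935 and 740 FPKM in VNS-TAC against 720, 784 and 670 in Ctrl-TAC (limma adjusted p = 0.389), with VNS-TAC 3 inside the control range. Etfa was at 293, 399 and 319 FPKM against 359, 412 and 336, and Etfdh at 198, 293 and 202 against 263, 292 and 254. The subunit genes of this 1 protein thus had log2 fold changes of opposite sign, at 0.38 ± 0.20 and -0.14 ± 0.16, neither beyond the spread.

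Library VNS-TAC 3 held the lowest value for 17 of the 39 members (43.6%, against 26.5% of all genes), 8 of them in beta-oxidation and electron transfer. VNS-TAC 2 held the highest for 11 members (28.2%, against 4.01% of all genes), 10 of them in that group. The spread between VNS-TAC libraries was wider than between controls for 38 of 39 members, with a median SD of 0.297 against 0.101 on the log2 scale, and for 81.6% of all genes, with 0.248 against 0.111. The cardiomyocyte markers were at a median of 0.21, 0.11 and -0.36 relative to Ctrl-TAC in VNS-TAC 1, 2 and 3, and the beta-oxidation group at 0.13, 0.23 and -0.17. VNS-TAC 3 was thus lowest in both, and the part of cardiomyocyte content was not tested.

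VNS-TAC 3 was singled out after it was seen to hold these low values, so leaving it out raises the VNS-TAC mean of those 17 members by construction. Without VNS-TAC 3, 28 of 39 members were higher on average and the median log2 fold change was 0.16, against -0.10 over all genes. In that comparison of 2 libraries with 3, 12 members were higher at an unadjusted p under 0.05 (30.8%, background 5.02%) and 2 lower (5.13%, background 16.7%). Groups did not overlap for 16 higher members (41.0%, background 12.4%) and 2 lower ones (5.13%, background 28.4%). Without VNS-TAC 1, which array weights down-weight as much, 21 members were higher on average with a median of 0.04. At that p 8 were higher (20.5%, against 7.09% of all genes) and 2 lower (5.13%, against 14.9%). In that setting 12 members did not overlap (30.8%, against 41.8% of all genes), with 23.1% higher (14.9% of all genes) and 7.69% lower (26.9%). Without VNS-TAC 2, 18 members were higher on average with a median of -0.01. At that p 4 were then higher (10.3%, against 3.85% of all genes) and 3 lower (7.69%, against 10.6%). Groups then did not overlap for 7 higher members (17.9%, against 12.5%) and 6 lower ones (15.4%, against 21.4%). Added to the higher non-overlapping members without VNS-TAC 3 were Cpt1b, Crat, Acadvl, Hadh, Echs1, Acaa1a, Eci1, Etfb and Acot2. No member passed the adjusted threshold without VNS-TAC 3 (smallest limma adjusted p = 0.108, Acaa2). With array weights, 11 of the 39 members passed the adjusted threshold, against 8.9% of all genes in both directions together. Of these 11, 9 were higher, and the share of all genes by direction was not computed at that threshold. The weights were 0.2456, 2.82 and 0.2469 for VNS-TAC 1, 2 and 3. Within VNS-TAC these calls therefore leaned mostly on library 2. Pdk4, for example, had a weighted log2 fold change of -1.05, and VNS-TAC 2 alone was at -0.99 relative to Ctrl-TAC.

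**Figure D4:**
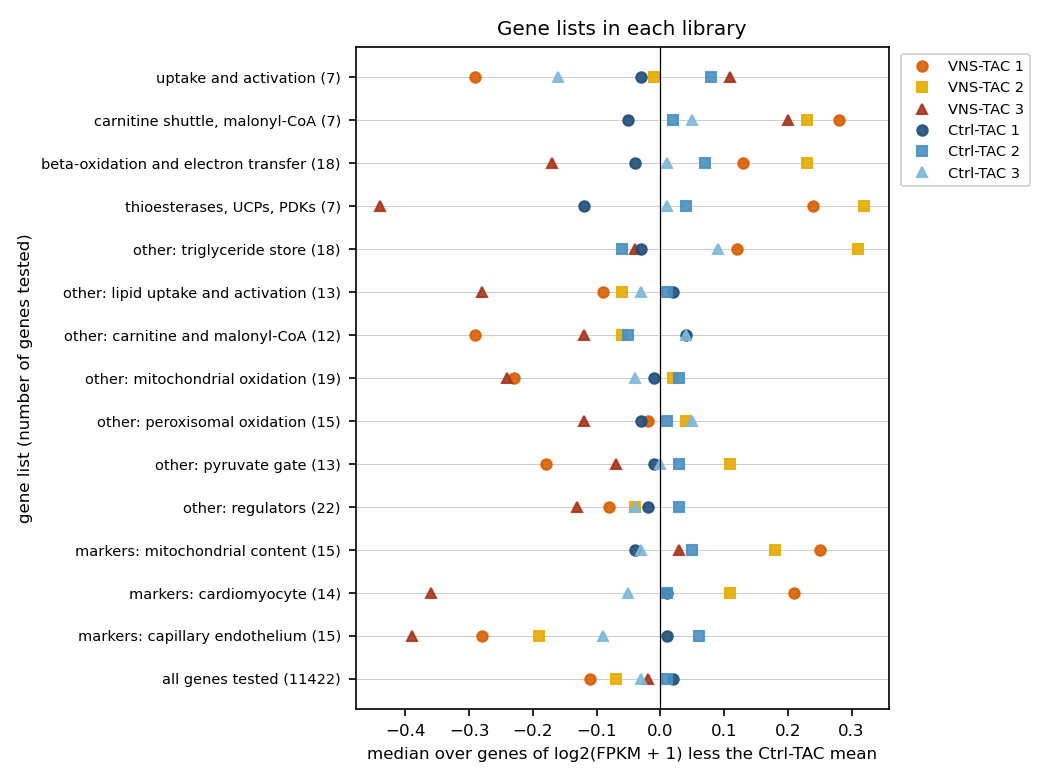
Median over the genes of a list of log2(FPKM + 1) less the Ctrl-TAC mean, in each library, with the number of genes tested in brackets; circles, squares and triangles are libraries 1, 2 and 3, with VNS-TAC in orange, yellow and red and Ctrl-TAC in blues. The carnitine shuttle list is at 0.28, 0.23 and 0.20 in VNS-TAC 1, 2 and 3, and beta-oxidation is below 0 only in VNS-TAC 3 among the VNS-TAC libraries.

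The rest of the pathway was read from 8 lists of 128 other genes, of which 117 were tested. Of these, 44 were higher and 73 lower on average, with a median log2 fold change of -0.11, and 0 passed the adjusted threshold in limma. Unadjusted, 8 of them had a p under 0.05 with a higher mean and 10 with a lower one, against the 3.79% and 11.3% of all genes, which stand as background for each of the lists. The gene with the smallest p was Angptl4, a secreted inhibitor of lipoprotein lipase. It was at 1.74, 2.09 and 0.96 FPKM in VNS-TAC against 4.52, 3.87 and 5.27 in Ctrl-TAC, all 3 below the controls (log2 fold change -1.11 ± 0.20, SE; limma adjusted p = 0.177). Acbd5, an acyl-CoA binding protein of peroxisomes, was at 2.03, 3.93 and 4.34 against 6.28, 6.80 and 4.90 FPKM.

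Of 12 genes of carnitine supply and the AMP-activated kinase, which inhibits acetyl-CoA carboxylase, 1 was higher and 3 were lower at an unadjusted p under 0.05. Prkab2, a regulatory subunit of the kinase, was at 7.98, 12.7 and 12.7 FPKM against 20.97, 19.51 and 20.98 (log2 fold change -0.85 ± 0.19, limma adjusted p = 0.19). Tmlhe, the first enzyme of carnitine synthesis, was at 3.94, 4.41 and 2.85 FPKM against 6.51, 5.26 and 6.46. Both were below the controls in every VNS-TAC library.

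Other mitochondrial oxidation genes had 0 higher and 3 lower of 19 at that p. Hibch and Mmut, enzymes of valine and propionate breakdown, were at 18.7 to 32.0 and 12.9 to 21.5 FPKM against 34.9 to 40.4 and 24.2 to 27.6, without overlap. Of 15 peroxisomal oxidation genes and 5 further thioesterases, none reached that p. The smallest limma adjusted p-values were those of Pex14, a peroxisomal import protein (0.346), and Abcd3, a fatty acid transporter (0.358), in the first list, and of Acot11 (0.376) and Them4 (0.595) in the second.

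Genes of the triglyceride store had 5 higher and 1 lower of 18 at an unadjusted p under 0.05 (background 3.79% and 11.3%), with a median log2 fold change of 0.17. Dgat1, which completes triglyceride synthesis, was at 17.8, 18.2 and 20.1 FPKM in VNS-TAC against 13.1, 12.4 and 13.9 in Ctrl-TAC (log2 fold change 0.48 ± 0.12, limma adjusted p = 0.214). Gpam, which starts that synthesis, was lower on average, at 26.7, 38.3 and 24.3 against 54.8, 48.5 and 57.5 FPKM (-0.85 ± 0.18, limma adjusted p = 0.19). The first and the last enzyme of 1 route thus had opposite signs, each without overlap.

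Of 22 regulators, 1 was higher and 1 lower at that p. Esrrb, an estrogen-related receptor, was at 14.0, 13.7 and 14.2 FPKM against 8.69, 10.4 and 12.0, and Hif1a, the hypoxia factor, at 6.81, 12.7 and 14.3 against 18.8, 19.9 and 15.1. Ppara was at 9.69, 15.8 and 12.2 FPKM against 13.4, 14.3 and 14.2 and did not differ beyond its spread (limma adjusted p = 0.649). Ppargc1a, the coactivator of mitochondrial genes, was at 6.45, 18.1 and 17.7 against 14.9, 18.6 and 17.3, low only in VNS-TAC 1. Esrra was at 137, 110 and 94.0 FPKM against 92.3, 98.0 and 89.8, with overlap through VNS-TAC 3.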

How the data were processed

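Poly(A) RNA from whole heart was sequenced. The authors deposited FPKM values to 2 decimals for 18019 NCBI gene IDs, and the submitters' processing notes name HISAT, featureCounts 1.5.0-p3, DESeq 1.8.3 and the build GRCm38, without roles. Annotation, strand and counting settings are not stated there. Symbols came from RefSeq (17890 IDs) and GENCODE (15), and 114 IDs had none. FPKM sums were 516493 to 585330.

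The 11422 genes whose mean reached 1 FPKM were fitted on log2(FPKM + 1) by limma 3.58.1 in R 4.3.3, letting the prior variance follow the mean level, with 4 residual degrees of freedom. P-values were adjusted over all genes by the Benjamini-Hochberg method (threshold 0.05). Fold changes are on that scale, which understates changes of low genes. On simulated data of 11422 genes, 200 of them changed, limma recovered 78.2% at a change of 1 log2 unit and 99.0% at 2. It called 10.2 unchanged genes on average. In the measured libraries the median SD over all genes was 0.248 in VNS-TAC and 0.111 in Ctrl-TAC, and 0 genes passed. Recovery at such unequal spread was not tested. Shares were compared over the 20 assignments of 3 against 3. The members and lists were chosen with earlier results of these data known. Full values are given for the 4 members of each role group with the smallest p and for set pathway genes, and for the 2 genes of each other list with the smallest p and 3 regulators. Alternatives covered pseudocount, filter, scaling, the variance model, each library left out and, added after seeing the data, trends on GC content and length. Analyses used Python 3.11.15 with pandas 2.3.3 and scipy 1.17.1. Protein identity was not computed, and transcript identity was used in its place.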

Additional observations from a re-analysis of the deposited data

How the results depend on the processing

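Of 606 values recomputed under 18 alternative settings, those that changed sign were 19 medians, of 6 gene lists, and 2 other values, both without VNS-TAC 3. The latter were the difference in the Cpt1a share (0.54 points, range over left-out libraries -0.631 to 1.36) and the log2 fold change of Fabp3 (range -0.63 to 0.01). No member passed the adjusted threshold in limma except with array weights, which gave 11 of the 39 members, against 8.9% of all genes. The weight was 2.82 for VNS-TAC 2, against 0.2456 for VNS-TAC 1 and 0.2469 for VNS-TAC 3. Library 2 thus counted for most of the VNS-TAC mean there. With those weights 18 members were at an unadjusted p under 0.05 (46.2%, against 30.1% of all genes), 16 of them higher (41.0%, against 8.09%). The medians with those weights were 0.32 for the thioesterase, uncoupling protein and kinase group, 0.00 for peroxisomal genes, 0.07 for the pyruvate gate and 0.33 for the triglyceride store. Leaving out 1 library gave 4 to 14 members at that p, 3 to 12 higher and 1 to 3 lower, while the share of all genes ran from 6.71 to 22%. It gave 11 to 18 members without overlap, against 29.7 to 41.8% of all genes. Medians then ranged from -0.20 to 0.01 for other lipid uptake genes, -0.14 to 0.01 for peroxisomal genes, -0.09 to 0.12 for other thioesterases and 0.07 to 0.26 for the triglyceride store. With a GC trend removed, 1 member was lower at that p, and medians were -0.00 for uptake and activation, 0.01 for other lipid uptake, 0.01 for peroxisomal genes and 0.07 for the pyruvate gate. With a length trend removed, 1 member was lower and the triglyceride store was at 0.29. Other lipid uptake was at 0.04 with a filter of 5 FPKM and at -0.01 after quantile normalization, where other thioesterases were at 0.13. The cause of these changes was not tested. The median over all genes was -0.08, or 0.01 after quantile normalization and -0.15 at an equal FPKM sum. No paired analysis was possible because the labels give the VNS-TAC libraries other numbers than the table's header does. Depth limits mainly Acsl3, Ucp3, Ehhadh and Acot1.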

Other observations

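Fibroblast markers were lower on average in VNS-TAC for 10 of 10 genes, with a median log2 fold change of -0.94. Of these, 6 had an unadjusted limma p under 0.05 (background 11.3% lower), and 0 passed the adjusted threshold. Their summed level was 823.0 to 1218 FPKM in VNS-TAC and 1276 to 1313 in Ctrl-TAC, lowest in VNS-TAC 3. Most of that sum was Gsn and Dcn. Dcn was highest in VNS-TAC 3, at 388 FPKM against 257 to 285 in Ctrl-TAC, and Pdgfra lay inside the control range there. Haemoglobin and other blood genes summed to 1503, 310.2 and 25.08 FPKM in VNS-TAC 1, 2 and 3 and to 577.7, 272.1 and 182.6 in Ctrl-TAC, so that VNS-TAC held both the highest and the lowest library. Their part in the member values was not tested. GC content and log2 fold change had a Spearman correlation across genes of 0.35 over the 39 members and 0.38 over the 11319 genes with a GC value, where genes share libraries and are not independent replicates.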
